A study of Homo sapiens with 2 samples.

Results

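Polycomb repressive complex 2 (PRC2) is described here by the transcripts of 10 genes that encode its core, its histone-binding subunits and its accessory subunits. The members are EZH1, EZH2, EED, SUZ12, JARID2, MTF2, PHF1, PHF19, RBBP4 and RBBP7. They were found by symbol in the deposited table, where each had a single row, and they are 10 of the 25436 gene symbols used. The data comprise 2 libraries of polyadenylated RNA, 1 from HuES53 and 1 from HuES64, which are human embryonic stem cell lines. The labels describe both as diploid, undifferentiated, below passage 20 and derived by in vitro fertilization, and they were the controls of work on haploid embryonic stem cells. Haploid cells were not analysed here. Values are FPKM, fragments scaled by transcript length and by mapped fragments, so levels of different genes in a library can be set side by side. A limit is that differences between the libraries followed GC content, which this scaling does not remove. With 1 library per line there is no replicate error, and every difference describes these libraries rather than the lines.

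PRC2 is the enzyme complex that methylates histone H3 at lysine K27, a mark of silent genes. EZH2 or EZH1 carries the methyltransferase activity, which needs SUZ12 as a scaffold and EED, a subunit that binds the finished mark and stimulates the enzyme. RBBP4 or RBBP7 binds histones, and is also a subunit of other chromatin complexes. Accessory proteins then sort the core into alternative forms: one form holds a Polycomb-like protein (PHF1, MTF2 or PHF19), another holds JARID2 and AEBP2. In embryonic stem cells the complex is known for occupying the promoters of developmental regulators that are silent until differentiation.

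All 10 genes were expressed in both lines, at 5.02 FPKM or more in HuES53 and 5.79 FPKM or more in HuES64. The median level of the 10 was 25.0 FPKM in HuES53 and 23.3 FPKM in HuES64, against medians of 11.1 FPKM in HuES53 and 10.4 FPKM in HuES64 over the 13790 genes whose mean reached 1 FPKM (the genes tested). In HuES53 the order from high to low was JARID2, RBBP7, MTF2, RBBP4, PHF19, PHF1, EED, SUZ12, EZH2 and EZH1. In HuES64 it was RBBP7, JARID2, PHF1, RBBP4, MTF2, PHF19, EED, EZH2, SUZ12 and EZH1. In both libraries JARID2 and RBBP7 held the first places, the other histone-binding gene and the Polycomb-like genes came next, and EED, SUZ12, EZH2 and EZH1 came last. Without replicates there is no spread against which neighbours in these orders could be told apart.

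**Figure D1:**
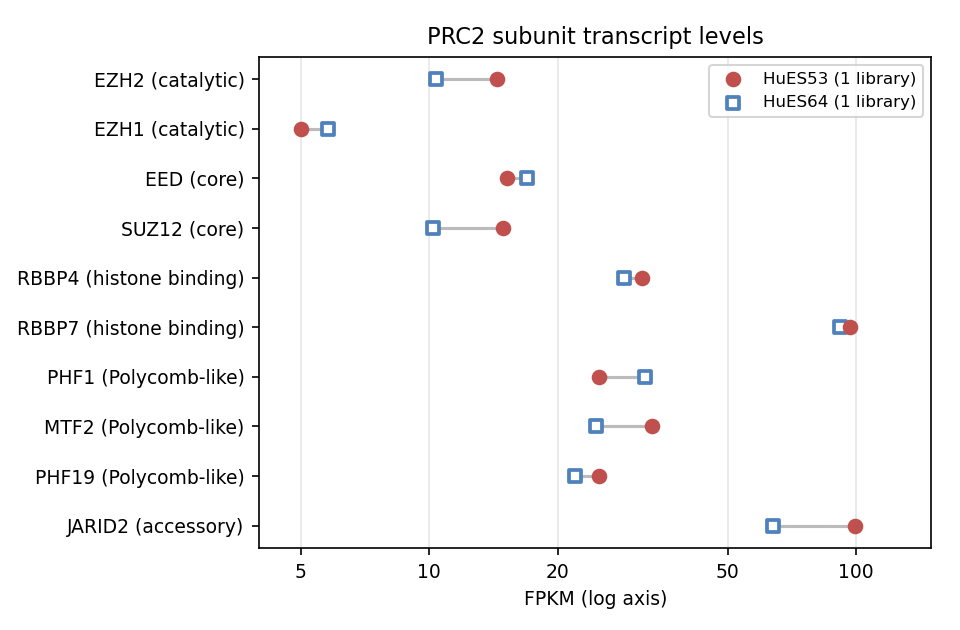
Transcript level of each PRC2 gene in FPKM (log axis), grouped by role. Filled circles are HuES53 and open squares HuES64, 1 library each, with no error bars because there are no replicates. The core genes lie between 5.02 and 16.96 FPKM, while RBBP7 and JARID2 lie between 63.8 and 99.5 FPKM.

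Between the lines, differences were mostly small. Each difference was taken on the log2(FPKM + 1) scale, HuES53 minus HuES64, which makes folds smaller than the plain ratio for low genes. The median difference was 0.16 over the 10 members and 0.03 over all tested genes. Of the 10, 7 were higher in HuES53 and 3 in HuES64, with 9 higher in HuES53 when each library was instead divided by its FPKM sum (TPM scaling), 7 of them above the median of all genes on that scale. Over all tested genes 52.5% were higher in HuES53. JARID2 was the only member at least 1.5-fold higher in HuES53, where 9.22% of all tested genes passed that size, and no member was 1.5-fold higher in HuES64, where 7.84% did. In either direction, 1 of 10 members passed 1.5-fold, against 17.1% of all tested genes. With TPM scaling it was 4 of 10, against 26.9%, and with the trend over GC content and transcript length removed none, against 11.4%. No member differed by 2-fold, a size passed by 3.86% of tested genes (2.15% higher in HuES53 and 1.7% higher in HuES64). TPM scaling raised the median of all genes by 0.23, and the member median lay 0.13 above that of all genes before it and 0.15 above it after.

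The catalytic genes leaned in opposite directions. EZH2, the methyltransferase typical of dividing cells, stood at 14.4 FPKM in HuES53 and 10.4 FPKM in HuES64, a difference of 0.44 (1.36-fold). Its locus is chr7:148504464-148581441 in the table's own build, which the files do not name, and 16.5% of tested genes had a larger difference towards HuES53. EZH1, the paralog with weaker methyltransferase activity, stood at 5.02 FPKM in HuES53 and 5.79 FPKM in HuES64, a difference of -0.17 that became 0.04 with TPM scaling. It lies at chr17:40852293-40897071. EZH1 therefore made up 25.9% of the summed EZH1 and EZH2 level in HuES53 and 35.8% in HuES64, and EZH2 the larger share in both. The sum itself was 19.4 FPKM in HuES53 and 16.2 FPKM in HuES64. These shares do not depend on how a library is scaled.

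SUZ12 and EED, the other core genes, also leaned apart. SUZ12 (chr17:30264044-30328057) stood at 14.9 FPKM in HuES53 and 10.2 FPKM in HuES64, a difference of 0.50 (1.41-fold). EED (chr11:85955815-85989781) stood at 15.2 FPKM in HuES53 and 16.96 FPKM in HuES64, a difference of -0.15 that became 0.09 with TPM scaling. Set against the summed EZH1 and EZH2 level, SUZ12 stood at 0.765 in HuES53 and 0.633 in HuES64, while EED stood at 0.785 in HuES53 and 1.05 in HuES64. With the trend over GC content and length divided out of HuES53 alone, SUZ12 stood at 0.659 and EED at 0.747 in HuES53.

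The SUZ12 value has a close copy beside it in the table. SUZ12P, which RefSeq lists as the older name of the pseudogene SUZ12P1, stood at 15.8 FPKM in HuES53 and 22.2 FPKM in HuES64, a difference of -0.47 in the direction opposite to SUZ12. The sum of both genes was 30.7 FPKM in HuES53 and 32.4 FPKM in HuES64, a difference of -0.08. SUZ12 made up 48.5% of that sum in HuES53 and 31.6% in HuES64. FPKM are scaled by each gene's own length, so the sum and these shares do not count pooled fragments of the 2 genes. In GENCODE release 29, 1023 of the 4491 bases of the longest coding SUZ12 transcript had a match of 96.97% identity in SUZ12P1 transcripts. The sources used here do not say how fragments from such stretches were assigned, and their part in the SUZ12 difference was not tested. SUZ12 itself is therefore less certain than the other core genes, none of which had a match of at least 95% identity over 300 bases in another gene.

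The histone-binding genes were nearly level. RBBP7 (chrX:16862773-16888534) stood at 96.8 FPKM in HuES53 and 91.9 FPKM in HuES64, a difference of 0.07. RBBP4 (chr1:33116749-33151812) stood at 31.4 FPKM in HuES53 and 28.6 FPKM in HuES64, a difference of 0.13. RBBP7 held 75.5% of their summed level in HuES53 and 76.3% in HuES64. The sum was 6.60 times the summed EZH1 and EZH2 level in HuES53 and 7.46 times in HuES64. RBBP4 overlaps the locus of SYNC, and 1507 of the 7943 bases of its longest coding transcript matched SYNC transcripts. SYNC stood at 0.856 FPKM in HuES53 and 4.76 FPKM in HuES64. RBBP4 also had a processed pseudogene, RBBP4P1, with 97.2% identity over 1276 bases.

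The Polycomb-like genes, whose proteins bind CpG-rich DNA and bring the core to it, stood in a different order in the lines with the deposited values. MTF2 (chr1:93544792-93604638) stood at 33.2 FPKM in HuES53 and 24.6 FPKM in HuES64, a difference of 0.42 (1.34-fold). PHF1 (chr6:33378773-33384230) stood at 25.0 FPKM in HuES53 and 31.99 FPKM in HuES64, a difference of -0.34 (1.27-fold). It was the member with the largest difference in favour of HuES64, and stayed lower in HuES53 with TPM scaling (-0.11). PHF19 (chr9:123617931-123639606) stood at 25.1 FPKM in HuES53 and 21.9 FPKM in HuES64, a difference of 0.19. Their summed level hardly differed, at 83.3 FPKM in HuES53 and 78.5 FPKM in HuES64. Within it MTF2 held 39.9% in HuES53 and 31.3% in HuES64, PHF1 held 30.03% in HuES53 and 40.7% in HuES64, and PHF19 held 30.1% in HuES53 and 27.9% in HuES64. MTF2 led in HuES53 and PHF1 in HuES64 with the deposited values. With the trend over GC content and length divided out of HuES53 alone, PHF1 (35.8%) stood above MTF2 (33.4%) there. Which library carries the trend is not known, and it was not divided out of HuES64 instead, so neither order is settled.

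**Figure D2:**
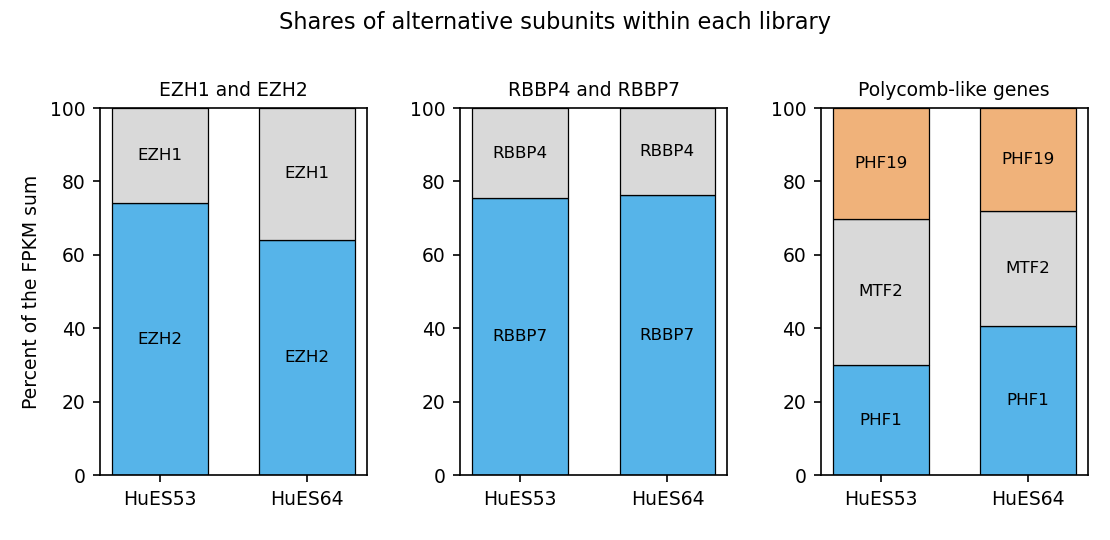
Share of each alternative subunit in the FPKM sum of its group (percent, y axis), with HuES53 left and HuES64 right in each panel and 1 library per bar. EZH1 takes 25.9% in HuES53 and 35.8% in HuES64, RBBP7 takes 75.5% in HuES53 and 76.3% in HuES64, and among the Polycomb-like genes PHF1 takes 30.03% in HuES53 and 40.7% in HuES64.

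JARID2, which helps recruit PRC2 and stimulates it, showed the largest difference of the 10. It stood at 99.5 FPKM in HuES53 and 63.8 FPKM in HuES64, a difference of 0.63 (1.55-fold) that 7.62% of tested genes exceeded towards HuES53. Its locus, chr6:15246527-15522253, overlaps that of LOC100506681, which was listed at 0 in HuES53 and stood at 0.245 FPKM in HuES64. Relative to the summed Polycomb-like genes JARID2 stood at 1.19 in HuES53 and 0.812 in HuES64. With the trend over GC content and length divided out of HuES53 alone, that ratio was 0.983 in HuES53. AEBP2, the zinc finger protein that shares a PRC2 form with JARID2 and is no member here, was level at 16.3 FPKM in HuES53 and 15.1 FPKM in HuES64. JARID2 was 6.10 times as high as AEBP2 in HuES53 and 4.22 times in HuES64.

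The differences of all genes followed GC content, and the members spanned much of that range. Over 20 bins of genes by the GC content of their transcripts, the median difference was 0.33 in the lowest bin (median 37.7% GC) and -0.34 in the highest (65.9%). Median GC ran from 36.9% for EED and 38.4% for SUZ12 to 56.9% for PHF19 and 60.5% for PHF1. With the trend over GC content and transcript length removed, JARID2 still had the largest difference, at 0.44, and was no longer 1.5-fold different. PHF19 followed at 0.31, MTF2 at 0.25, EZH2 at 0.20 and SUZ12 at 0.11. EED was the lowest at -0.38, EZH1 was at -0.16, and PHF1, RBBP4 and RBBP7 lay between -0.02 and 0.00. The member median was then 0.06, against 0.04 over the 11916 tested genes found in GENCODE release 29. With the trend divided out of HuES53 alone, the share of EZH1 in the EZH1 and EZH2 sum of HuES53 became 29.4%, against 35.8% in HuES64. Dividing it out of HuES64 instead was not done.

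**Figure D3:**
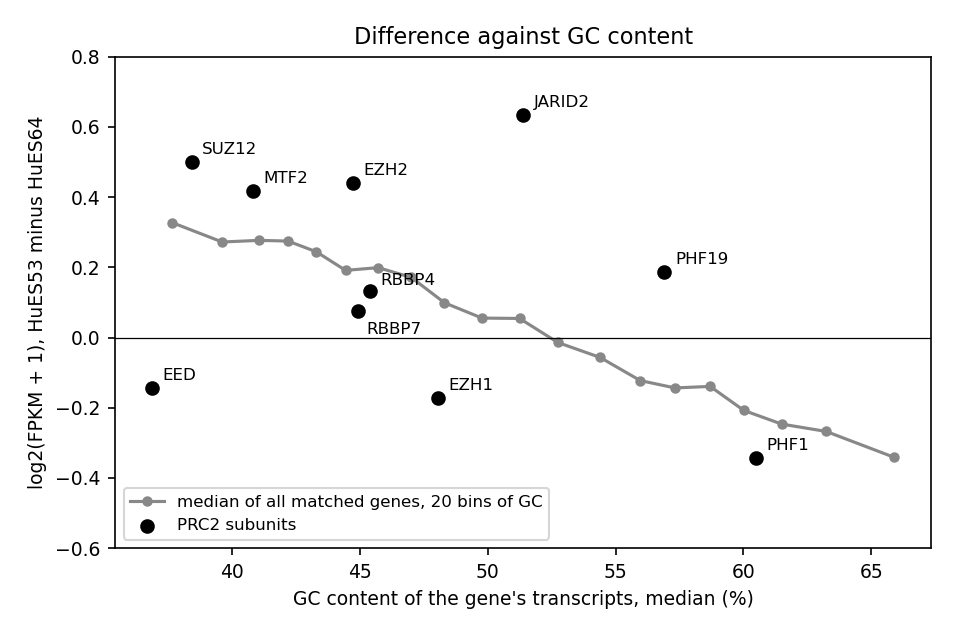
Difference between the lines (y axis, log2(FPKM + 1), HuES53 minus HuES64) against the median GC content of a gene's transcripts (x axis, percent). Grey points join the medians of all matched genes in 20 bins, from 0.33 to -0.34, and black points are the PRC2 genes: JARID2, at 0.63, lies farthest above the line, and EED, at -0.15, lies below it.

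**Figure D4:**
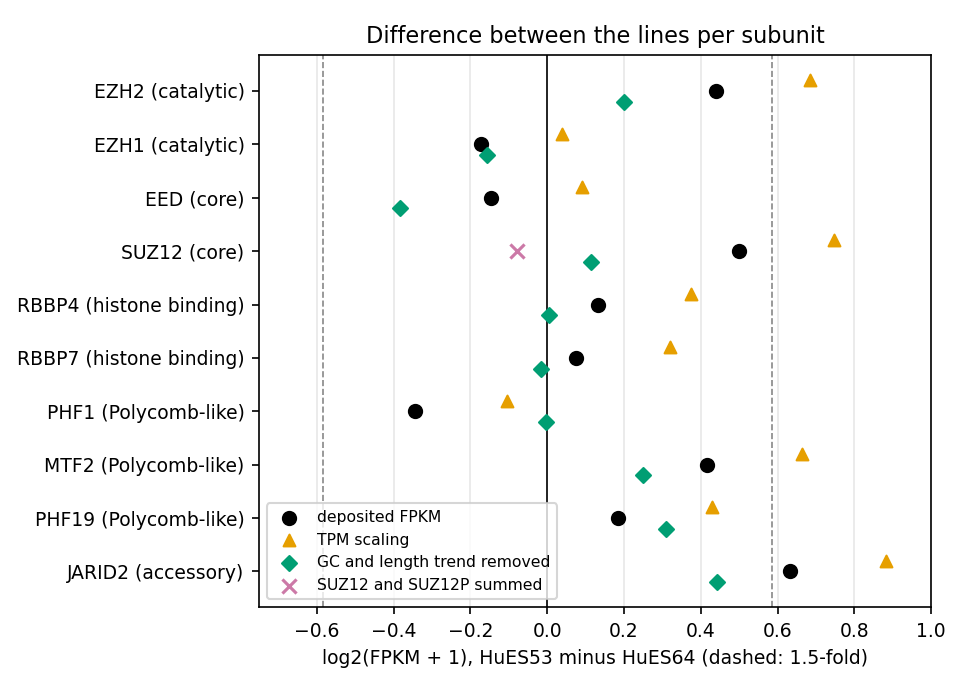
Difference of each PRC2 gene (x axis, log2(FPKM + 1), HuES53 minus HuES64) with deposited FPKM, TPM scaling and the GC and length trend removed, and for SUZ12 also after adding SUZ12P. Dashed lines mark 1.5-fold. JARID2 is past the line with deposited values (0.63) but not with the trend removed (0.44), and SUZ12 is at 0.50 alone and at -0.08 with SUZ12P added.

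Promoter sequence was looked at because several PRC2 genes, EZH2 and EED among them, are known as targets of E2F, the factors that drive genes of S phase. All 10 members had RefSeq windows running from 250 bases before to 50 after a gene start (GRCh38.p14). They were searched on both strands for 4 E2F words, TTTGGCGC, TTTCCCGC, TTTGCCGC and TTTCGCGC, a search chosen with the expression values and the windows in view. A word was found in 5 of the 10 genes, EZH2 among them but not EED, and in 3.99% of the 27305 genes with a window. This sets no rate for the members, since the search was chosen with their windows seen and genes differ in the GC content and number of their windows. Stretches around the words run 5′ to 3′ along the gene's strand, with the word or its reverse complement in capitals, and show where the word sits in each of the 5 genes.
EZH2: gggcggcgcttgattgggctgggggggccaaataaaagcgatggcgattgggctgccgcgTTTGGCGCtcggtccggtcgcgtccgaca
SUZ12: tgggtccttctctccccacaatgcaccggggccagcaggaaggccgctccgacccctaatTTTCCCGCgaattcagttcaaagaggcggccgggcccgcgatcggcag
MTF2: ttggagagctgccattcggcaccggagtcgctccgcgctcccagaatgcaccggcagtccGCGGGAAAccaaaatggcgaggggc
PHF19: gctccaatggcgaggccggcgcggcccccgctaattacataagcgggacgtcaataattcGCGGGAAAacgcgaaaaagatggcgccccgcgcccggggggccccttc
EZH1: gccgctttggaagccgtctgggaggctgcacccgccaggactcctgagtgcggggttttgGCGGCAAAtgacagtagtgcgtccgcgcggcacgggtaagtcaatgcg
They lie at chr7:148884262-148884350 on the minus strand for EZH2, chr17:31936758-31936865 on the plus strand for SUZ12 and chr1:93079228-93079312 on the plus strand for MTF2. The PHF19 stretch, from the second of its windows, is chr9:120877293-120877400 on the minus strand, and that of EZH1 is chr17:42745108-42745215 on the minus strand. Of these 5 genes, EZH2, SUZ12, MTF2 and PHF19 were higher in HuES53 and EZH1 in HuES64. Of the 5 without a word, JARID2, RBBP4 and RBBP7 were higher in HuES53 and EED and PHF1 in HuES64, so no link between word and direction is shown. A match to 8 letters is no evidence of binding, and a window without one says nothing of the factor.

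Most, but not all, of the cell cycle genes listed also leaned towards HuES53, in the direction of EZH2. Of 25 listed, 24 were tested and 17 of these were higher in HuES53 (23 with TPM scaling, 17 of them above the median of all genes on that scale). Their median difference was 0.33, or 0.21 with the GC and length trend removed. PCNA, a replication clamp, stood at 231 FPKM in HuES53 and 226 FPKM in HuES64, and CCNB1, a mitotic cyclin, stood at 204 FPKM in HuES53 and 160 FPKM in HuES64. BUB1B, a mitotic checkpoint kinase, stood at 72.8 FPKM in HuES53 and 35.3 FPKM in HuES64. The 7 higher in HuES64 were E2F1 (-0.28), MCM7 (-0.17), MCM5 (-0.09), MCM2 (-0.08), MCM3 (-0.02), MCM4 (-0.01) and CDC20 (-0.006). MCM6 (0.49) and E2F3 (0.32) were higher in HuES53. The MCM, E2F, CDC20 and CCNE1 genes were named after their values were seen. Subtracting the GC and length trend left E2F1 (-0.06) and MCM3 (-0.10) higher in HuES64 and moved PCNA (-0.11) and E2F3 (-0.03) there. The rest of the 24 were then above 0, but the median of all genes with the trend removed was itself 0.041. MCM7 (0.012), MCM4 (0.025), MCM5 (0.025) and CCNE1 (0.036) lay below that median. At least 1.5-fold higher in HuES53 were 5 of the 24, against 9.22% of all tested genes, and in HuES64 none, against 7.84%. With the GC and length trend removed, BUB1B (0.80) and TOP2A (0.60) stayed past 1.5-fold, while MKI67 (0.54), BUB1 (0.44) and KIF11 (0.39) did not. All but BUB1B were named after their values were seen. Of the 11916 genes with that trend removed, 11.4% were past 1.5-fold in either direction. The part of cell cycle genes in the EZH2 difference was not tested.

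Other tested genes of the Polycomb system differed by less than 2-fold, with single genes leaning either way. The H3K27 demethylase gene KDM6A stood at 16.8 FPKM in HuES53 and 11.0 FPKM in HuES64 (0.57, or 0.21 with the trend removed), and KDM6B stood at 3.45 FPKM in HuES53 and 3.83 FPKM in HuES64. Of 5 further PRC2 accessory genes 4 were tested, 2 higher in each line. LCOR stood at 1.88 FPKM in HuES53 and 1.71 FPKM in HuES64, and C17orf96, named after its value was seen, stood at 1.04 FPKM in HuES53 and 2.17 FPKM in HuES64 (1.56-fold). CXorf67, the remaining gene, reached 0.0932 FPKM in HuES53 and was at 0 in the HuES64 column. Of 24 genes of PRC1, the complex that ubiquitinates histone H2A, 22 were tested and 15 were higher in HuES53 (20 with TPM scaling, 15 of them above the median of all genes on that scale). Their median difference was 0.22, or 0.23 with the trend removed. PHC1 led them at 191 FPKM in HuES53 and 145 FPKM in HuES64, followed by PCGF2 at 39.3 FPKM in HuES53 and 42.2 FPKM in HuES64. PHC2, named after its value was seen, stood at 8.92 FPKM in HuES53 and 15.3 FPKM in HuES64. It was the only 1 of the 22 past 1.5-fold, against 17.1% of all tested genes.

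Partners of RBBP4 and RBBP7 in other complexes, such as NuRD, SIN3 and CAF-1, had a median difference of 0.00 over 27 genes. Of these, 14 were higher in HuES53 (21 with TPM scaling, 13 of them above the median of all genes). None was past 1.5-fold, against 17.1% of all tested genes. MTA3, a NuRD subunit, stood at 107 FPKM in HuES53 and 131 FPKM in HuES64, and the deacetylase gene HDAC1 stood at 123 FPKM in HuES53 and 113 FPKM in HuES64. Genes for the opposing methylation of H3 at K4 and K36 had a median of 0.07 over 13. Among them 9 were higher in HuES53 (12 with TPM scaling, 8 of them above the median of all genes). None was past 1.5-fold, against the same 17.1%. DPY30 stood at 135 FPKM in HuES53 and 163 FPKM in HuES64, and ASH2L stood at 58.6 FPKM in HuES53 and 48.3 FPKM in HuES64. No tested demethylase, accessory, PRC1, partner or opposing gene differed by 2-fold, a size that 3.86% of all tested genes passed.

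Developmental regulators, many of them textbook PRC2 targets in embryonic stem cells, were mostly low. Of 57 listed, 42 were under 1 FPKM in both lines, and the median of the 57 was 0.141 FPKM in HuES53 and 0.160 FPKM in HuES64. A mean of 1 FPKM was reached by 12 of the 57 and by 1 of 39 HOX genes, against 54.2% of all 25436 symbols. Of 39 HOX genes, 38 were under 1 FPKM in both lines, and HOXB2 stood at 0.609 FPKM in HuES53 and 1.81 FPKM in HuES64. HOXC6, the next by mean over the lines, stood at 0.887 FPKM in HuES53 and 0.162 FPKM in HuES64. By their mean over the lines the highest regulators were the endoderm factors FOXA2, at 11.9 FPKM in HuES53 and 9.26 FPKM in HuES64, and GATA4, at 11.5 FPKM in HuES53 and 7.77 FPKM in HuES64. SOX17, another endoderm factor and named after its value was seen, stood at 6.89 FPKM in HuES53 and was the highest of the list in HuES64, at 10.6 FPKM. In bulk samples a low level in all cells and a higher level in a few cannot be told apart.

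The nearest genes to EZH2 in both libraries, by Euclidean distance of log2(FPKM + 1) over the 2 lines, were NAA35 (distance 0.014), LRP10 (0.021) and NDRG4 (0.028). NAA35 stood at 14.4 FPKM in HuES53 and 10.5 FPKM in HuES64. With 2 samples such likeness is only a description.

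The identity of the cells was checked against markers. All 10 pluripotency genes were above 1 FPKM in both lines, with summed levels of 3928 FPKM in HuES53 and 3813 FPKM in HuES64. POU5F1 led them at 1053 FPKM in HuES53 and 1381 FPKM in HuES64, followed by TDGF1 at 723 FPKM in HuES53 and 528 FPKM in HuES64. Of the 10, 6 were higher in HuES53 and 4 in HuES64 (9 higher in HuES53 with TPM scaling, 6 of them above the median of all genes). At least 1.5-fold higher in HuES53 were 2, against 9.22% of all tested genes, and in HuES64 none, against 7.84%. Neural progenitor genes summed to 1.796 FPKM in HuES53 and 1.31 FPKM in HuES64 over 6 genes, of which NEUROG2 was listed at 0 in HuES53. Endoderm genes summed to 115 FPKM in HuES53 and 62.0 FPKM in HuES64 over 6 genes, with 5 higher in HuES53 and SOX17 higher in HuES64. CXCR4 alone held 68.1 FPKM of that sum in HuES53 and 26.3 FPKM in HuES64, and AFP stood at 7.25 FPKM in HuES53 and 1.53 FPKM in HuES64. Mesoderm genes summed to 18.8 FPKM in HuES53 and 13.7 FPKM in HuES64 over 6. Of 4 tested, 2 were higher in each line, and MIXL1 stood at 6.84 FPKM in HuES53 and 2.52 FPKM in HuES64. No gene of the endoderm and mesoderm lists was at 0. Fibroblast genes summed to 458 FPKM in HuES53 and 459 FPKM in HuES64 over 10, most of it from THY1, which stem cells also express, and COL1A1. Of 7 tested, 3 were higher in HuES53 and 4 in HuES64. COL1A2, named after its value was seen, stood at 66.5 FPKM in HuES53 and 46.7 FPKM in HuES64. COL3A1 stood at 3.08 FPKM in HuES53 and 8.00 FPKM in HuES64 (2.21-fold). FAP was listed at 0 in HuES53, and DCN stood at 0.199 FPKM in HuES53 and 0.438 FPKM in HuES64. The part of such cells in the PRC2 differences was not tested, and in bulk RNA fewer cells of a type and less RNA per cell cannot be told apart.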

How the data were processed

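The authors deposited 1 table of FPKM values with a column per line. Cufflinks 2.0.2 and TopHat2 2.0.4 appear, with no role given, in the submitters' processing notes. Genome build, annotation, strand setting and filters were not stated in any source used here. The loci did not match GRCh38 and count from 0 (1272 of 1311 microRNA genes then had the RefSeq length), and are printed from 1. Rows on chromosome Y (136) were dropped, and rows sharing a symbol (21 symbols) were summed.

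Differences were computed with Python 3.11.15 and pandas 2.3.3 for genes averaging 1 FPKM or more, with a pseudocount of 1. FPKM are not counts and each line has 1 library, so no test was run. GC content and length came from GENCODE release 29 (86.4% of tested genes and all 10 members matched). Medians over 20 bins of each were subtracted in 5 rounds. This step was tested on simulated data with a GC trend and no length trend, so its length part was not tested. Near-identical copies were sought with BLAST 2.17.0. Depth is unknown: steps in low olfactory receptor values gave HuES64 either 14.8 or 29.5 fragments per FPKM and kilobase, depending on the range searched.

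The members and lists were chosen with earlier results of these data known. Of each further list the 2 highest genes and up to 3 tested genes at least 2-fold different were to be named, and the 3 genes nearest to EZH2; other genes are marked. Cell type marker lists are mostly given as counts and sums. Adding SUZ12P to SUZ12, and setting members against the median of all genes, were alternatives added after seeing the data.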

Additional observations from a re-analysis of the deposited data

How the results depend on the processing

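Of 10 alternatives run for each member (11 for SUZ12), 7 altered its difference by any amount (8 for SUZ12). The filters and the choice among repeated rows leave the members as they are. TPM scaling moved every member by over 0.2. Removing the trend did so for EZH2, EED, SUZ12 and PHF1, and adding SUZ12P did so for SUZ12. EZH2, JARID2, MTF2 and PHF19 kept their direction under the 7 that altered them. PHF1 and RBBP4 were level (-0.002 and 0.004) with the trend over GC and length removed. EZH1 and EED changed sign with TPM scaling alone, RBBP7 lay just below 0 without that trend (-0.02), and SUZ12 changed sign when SUZ12P was added (-0.08). With TPM scaling the member median was 0.40, 4 members were past 1.5-fold and 26.9% of all tested genes were. With the trend removed no member was past 1.5-fold, and 11.4% of the 11916 tested genes found in GENCODE were. Without a filter on low genes, 10.5% of all genes were past 1.5-fold with the deposited values, since many genes near 0 enter. Dividing the trend out of HuES53 alone moved the share of PHF1 among the Polycomb-like genes of HuES53 to 35.8% and that of MTF2 to 33.4%. A move of over 0.2 in a difference, or of over 5 percentage points in a share, was taken as a change, since no replicate spread exists. Leaving out overlapping members gave no value for shares with RBBP4 or JARID2. No paired analysis was possible because each line has 1 library.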

Other observations

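The neighbouring cell cycle inhibitor genes CDKN2A and CDKN2B, which Polycomb proteins are known to repress, stood in opposite order in the lines. CDKN2B was at 5.63 FPKM in HuES53 and 2.04 FPKM in HuES64 (2.18-fold), and CDKN2A, named after its value was seen, at 2.99 FPKM in HuES53 and 5.76 FPKM in HuES64 (1.69-fold). Both overlap other loci of the table, CDKN2B that of CDKN2B-AS and CDKN2A that of C9orf53.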
